A study of Mus musculus with 6 samples.

Results

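The cell cycle genes examined here are 37 genes of DNA replication and cell division that were chosen by name, among them cyclins, replication helicase subunits, mitotic kinases and spindle proteins. A gene was taken as measured when a non-control probe of the array carried its symbol in the platform annotation, with Cdk1 listed under its older name Cdc2a. By that rule 35 of the 37 genes were measured, with 62 probes, among 18295 genes in all. Ccnb1 and Hmgb2 had no probe under those symbols and were not analysed here. Each gene is represented by its brightest probe.

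RNA came from neurons sorted by flow cytometry for green fluorescent protein (GFP) from dissected brains of mouse embryos at E14.5. The null RNA has the genotype Pitx3(gfp/-), which the sample titles also write Pitx3-GFP/AK, with no pool number. It is taken here as 1 pool, although the protocol text, which is the same for every sample, speaks of heterozygous neurons and of 3 pooled samples and does not say how the null RNA was pooled. The heterozygous RNA came from 3 pools of genotype Pitx3(gfp/+), written Pitx3-GFP/wt in the titles. All pools carry the GFP allele of Pitx3, which encodes a transcription factor that midbrain dopaminergic neurons need, so the heterozygous neurons have a single intact copy of the gene. Each heterozygous pool was hybridised against the same null pool on a pair of dye-swapped arrays, 6 arrays in all (Cy5-null and Cy3-null arrays are named here for the dye of the null RNA), and each pool combined several embryos, per the protocol. The design sets neurons without intact Pitx3 against neurons with 1 copy. In RNA pooled from many cells, fewer cells of a type and less RNA per cell cannot be told apart.

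Cells that divide build their cycle from waves of gene expression. D and E cyclins with their kinases drive entry into DNA replication, for which the Mcm proteins form the helicase and Pcna, Rrm1, Rrm2 and Tyms supply the replication clamp and nucleotides. Cyclin A, cyclin B, Cdk1, Plk1 and the Aurora kinases drive mitosis, the checkpoint proteins of the Bub family hold it until chromosomes are attached, and the anaphase promoting complex with Cdc20 and Ube2c ends it. In the embryonic midbrain these genes mark progenitors of the ventricular zone, and neurons leave the cycle when they are born.

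Every ratio given here is log2 of null over heterozygous, with the 2 arrays of a pool averaged and the SD taken over the 3 pools. An array read a probe as bright, or well above background, if the spot exceeded the median of its local background plus 2 SDs of that background, and as dim otherwise. A gene is called above background here if 3 or more of the 6 arrays did so in the same RNA. That was so for 12291 genes, and single arrays read 47.6% to 71.4% of all genes well above background. Over the 12291 genes, log2 ratios of the paired arrays of 1 pool correlated at 0.63 to 0.74, and those of different pools and opposite dyes at 0.39 to 0.51. These correlations are across genes, which are no independent replicates, and all arrays share the null pool. Of the 14 midbrain dopaminergic markers examined, 10 were above background in the sorted cells, and their summed intensity over background ran from 640 to 1503 in the null RNA and from 612 to 1448 in the heterozygous RNA. Th, which encodes tyrosine hydroxylase, and En1 were dim in both RNAs on each array, and Lmx1a and Ret were bright on at most 1 array in each RNA. Slc6a3, the dopamine transporter, fell by 0.42 ± 0.018 in the null pool (SD, n = 3 pools; limma adjusted p = 0.0260). It stood well above background in the null RNA on 2 arrays and in the heterozygous RNA on 6, so the size of its fall is not settled by this value, and it read -1.53 with plain background subtraction. Slc6a3 was the 1 call of these 14 markers, where 1.87% of all genes were called lower. At an unadjusted p under 0.05 in limma, 0 of the 14 were higher and 5 lower, against 10.8% and 9.66% of all genes. The median ratio of the 14 was -0.04. Pitx3 itself was bright in both RNAs on each array, at a log2 ratio of -0.08 ± 0.32 (SD, n = 3 pools), which checks nothing about the labels because the position of its probe is not known here.

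Among the 35 measured cell cycle genes, 3 were higher in the null pool at an adjusted p under 0.05, and 0 were lower (limma, Benjamini-Hochberg adjustment over all genes). Cks2, the small subunit that binds cyclin-dependent kinases, Cdc20, an activator of the anaphase promoting complex, and Birc5, the survivin subunit of the chromosomal passenger complex, were the 3 that rose. They make up 8.57% of the measured members, against 3.09% of all genes called higher in the null pool and 1.87% called lower (4.96% in either direction). The members were chosen with earlier results of these data known, so a share above that of all genes is no independent finding. At an unadjusted p under 0.05, 5 members were higher and 3 lower in limma, where the shares of all genes were 10.8% and 9.66%. A ratio above 0 on all 6 arrays was found for 4 of the 35 members and a ratio below 0 on all 6 for 0 of them, against 10.9% and 9.27% of all genes. The median ratio of the members was 0.0090 ± 0.023 (SD of the 3 pools' medians), beside -0.0027 over all genes. Of the members 20 of 35 lay above 0, and of all genes 8736 of 18295 did.

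**Figure D1:**
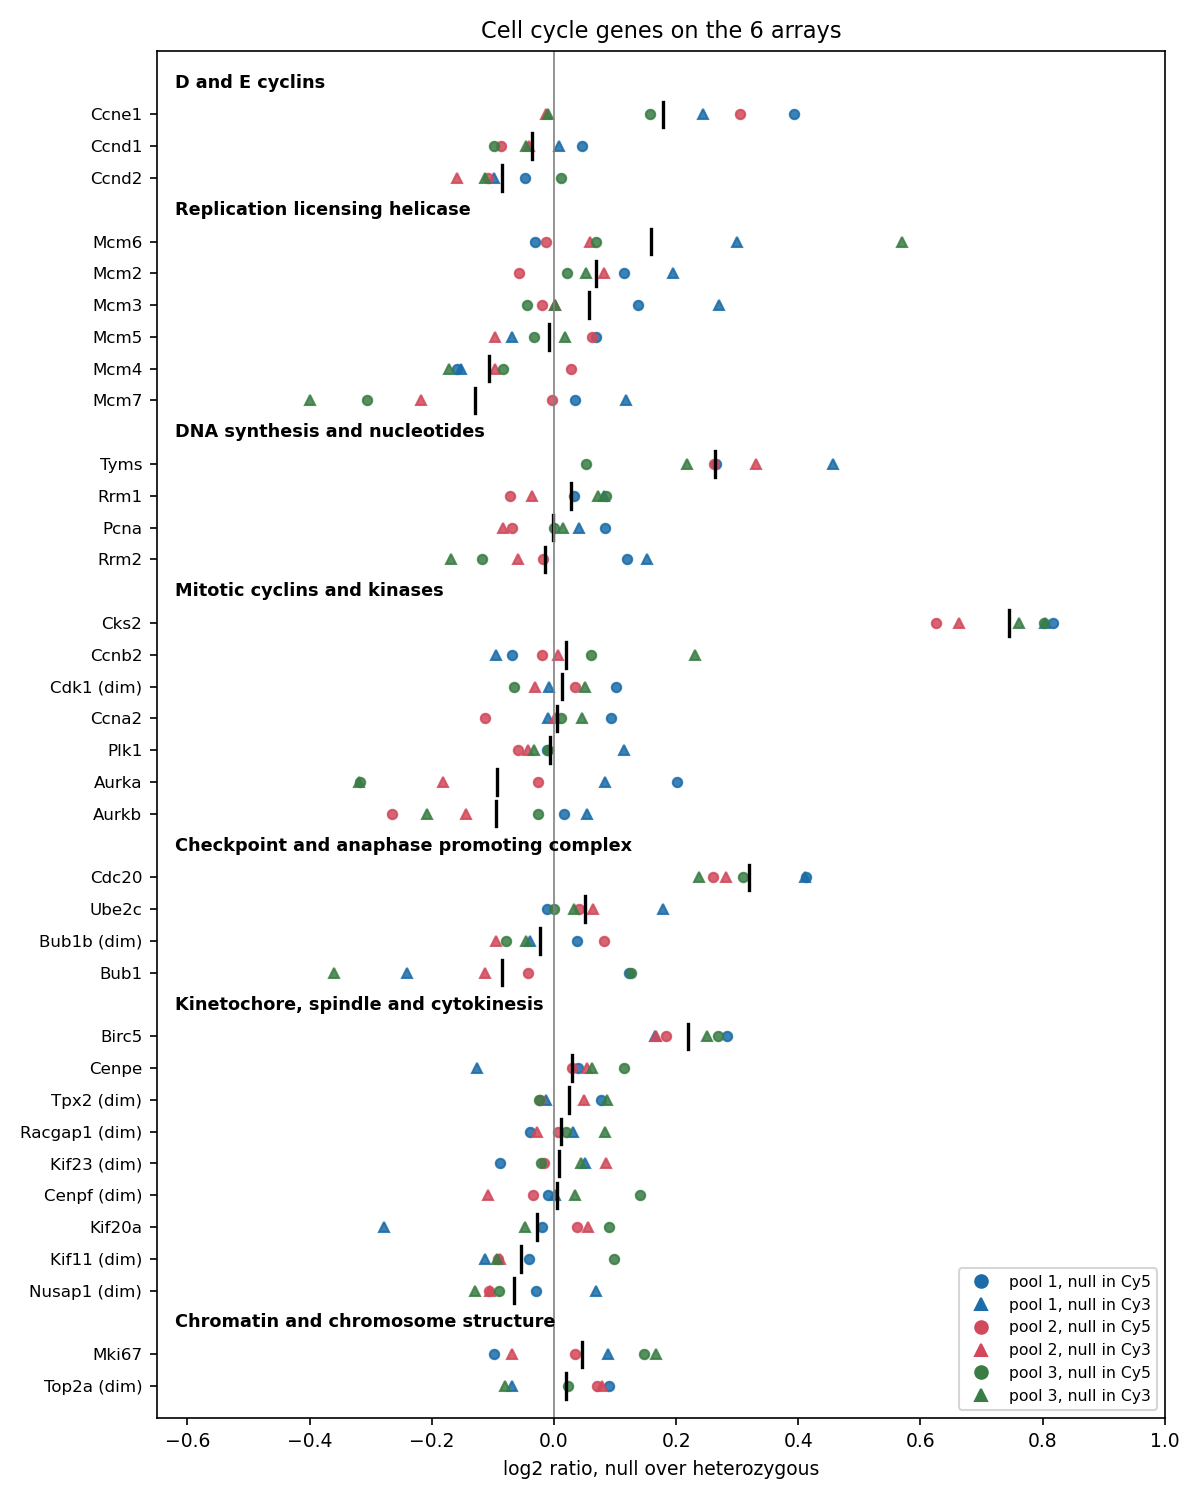
Log2 ratio of null over heterozygous (x axis) of the 35 measured cell cycle genes on each of the 6 arrays, grouped by role. Colours are the 3 heterozygous pools, circles are Cy5-null and triangles Cy3-null arrays; black ticks are means over the pools, and "dim" marks the genes that were not above background. Cks2 stands furthest to the right, with all arrays between 0.62 and 0.82, and most other genes straddle 0.

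Of the 35 members, 26 were above background, 21 of them on all 6 arrays in both RNAs. Cdk1, the kinase of mitotic entry, Bub1b, a checkpoint kinase, and the spindle and cytokinesis genes Kif11, Kif23, Racgap1 and Tpx2 were dim in both RNAs on each array, so no ratio is read from them. Cenpf, Nusap1 and Top2a were well above background on at most 2 arrays in each RNA. The members that were not above background include 6 of the 9 kinetochore, spindle and cytokinesis genes. Members above background had a median SD over pools of 0.0786, close to the 0.0726 of all genes above background. Among these members the size of the ratio was under 0.1 for 69.2%, against 63.1% of all genes above background, where the offset of the background correction draws dim ratios toward 0.

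Cks2 gave the largest ratio of the members. Its scanner intensity over local background in the null RNA was 594, 552 and 373 on the Cy5-null arrays of pools 1, 2 and 3, against 211, 284 and 191 in the heterozygous RNA. On the Cy3-null arrays it was 371, 302 and 324, against 204, 255 and 141 in the heterozygous RNA. The null signal was the higher one on each of the 6 arrays, and the 2 ranges did not overlap, from 302 to 594 in null RNA and from 141 to 284 in heterozygous RNA. After normalization the log2 ratio was 0.82, 0.62 and 0.80 on the Cy5-null arrays and 0.80, 0.66 and 0.76 on the Cy3-null arrays. The mean was 0.75 ± 0.089 (SD, n = 3 pools; limma adjusted p = 0.0260), a 1.68-fold higher level in the null pool. With plain background subtraction, where no gene of the array passed, Cks2 read 0.89. A second Cks2 probe, also bright in both RNAs on each array, read 0.52 ± 0.059 and was above 0 on all of them. Its mean signal over background was 106 in the null and 55.2 in the heterozygous RNA, against 419 and 214 at the first probe. The offset of the background correction draws the ratio of a dimmer probe further toward 0.

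For Cdc20, the scanner intensity over background in the null RNA was 476, 489 and 378 for pools 1 to 3 on the Cy5-null arrays, against 235, 334 and 293 in the heterozygous RNA. On the Cy3-null arrays it was 349, 310 and 268, against 267, 361 and 184 in the heterozygous RNA. Before normalization the heterozygous signal was the higher one on 1 array, the Cy3-null array of pool 2, and the ranges overlapped. The normalized log2 ratio was above 0 on all 6 arrays, at 0.41, 0.26 and 0.31 on the Cy5-null arrays and 0.41, 0.28 and 0.24 on the Cy3-null arrays. Its mean was 0.32 ± 0.081 (SD, n = 3 pools; limma adjusted p = 0.0403), which is 1.25-fold. This gene had 1 probe.

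Birc5 had null signals of 305, 302 and 212 over background on the Cy5-null arrays, against 168, 221 and 166 in the heterozygous RNA. On the Cy3-null arrays the null signals were 191, 177 and 181, against 176, 224 and 121 in the heterozygous RNA. As for Cdc20, the Cy3-null array of pool 2 was the 1 array with the higher raw heterozygous signal. The normalized ratio was 0.28, 0.18 and 0.27 on the Cy5-null arrays and 0.16, 0.17 and 0.25 on the Cy3-null arrays, above 0 on each array. The mean of 0.22 ± 0.042 (SD, n = 3 pools; limma adjusted p = 0.0408) corresponds to a 1.16-fold higher level in the null pool. Birc5, too, had 1 probe.

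**Figure D2:**
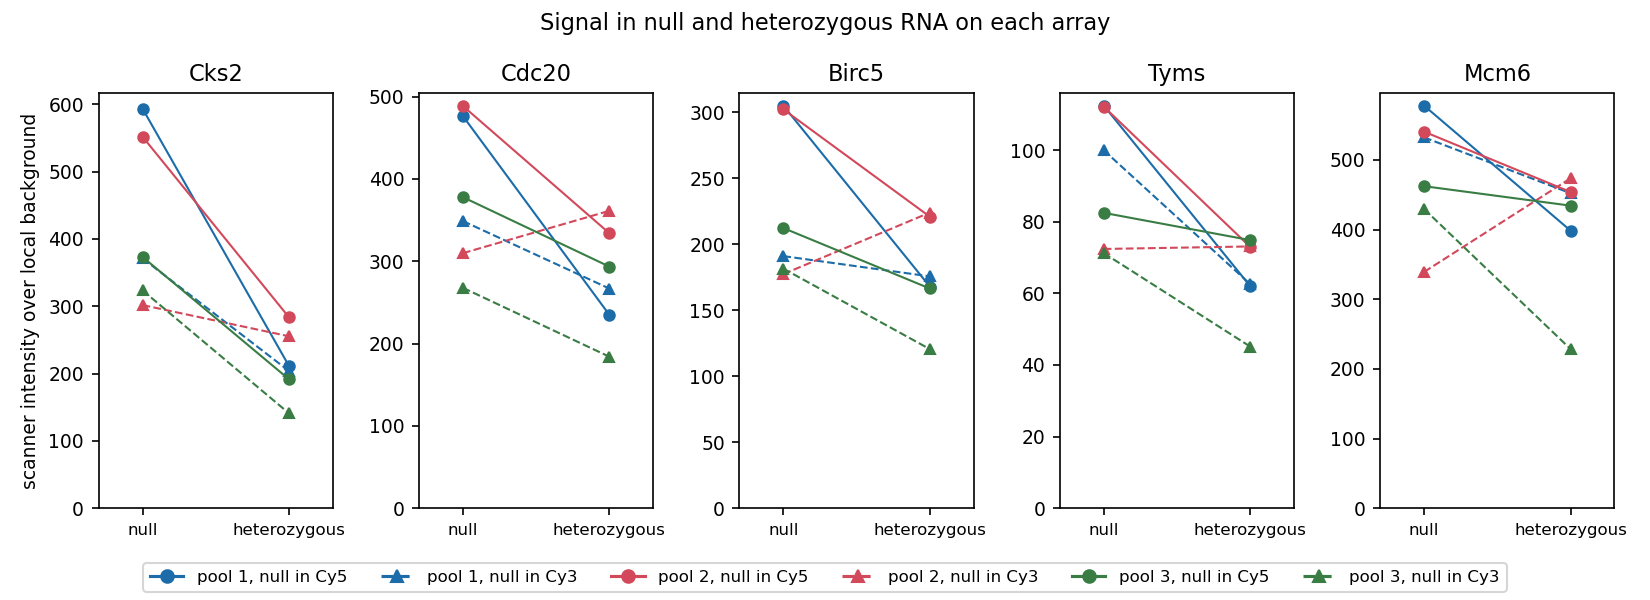
Scanner intensity over local background (y axis, before normalization) in the null and the heterozygous RNA of each array for Cks2, Cdc20, Birc5, Tyms and Mcm6. Each line joins the 2 RNAs of 1 array; solid lines and circles are Cy5-null arrays, dashed lines and triangles Cy3-null arrays. For Cks2 every line falls to the right, while for Cdc20 and Birc5 the dashed line of pool 2 runs the other way.

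The calls of Cdc20 and Birc5 lay close to the threshold (limma adjusted p = 0.0403 and 0.0408). That of Cks2, at 0.0260, was level with the smallest adjusted p of any gene. None of the 3 passed in limma when any 1 pool was left out. Nor did they pass when the background was simply subtracted, arrays were centred on their median without loess, or a trended robust variance was used. In each of these settings 0 genes of the whole array passed, with a smallest adjusted p in limma from 0.073 to 0.135. The loss there is thus not particular to these 3, and their ratios stayed above 0. Of the 3, Birc5 alone was also lost on the Cy3-null arrays alone (limma adjusted p = 0.0681). The test rests on the spread of 3 heterozygous pools against what is taken as 1 null pool, so variation between null pools does not enter it.

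The promoters of the 3 called genes are shown because cell cycle genes are known to share promoter elements: the cell cycle genes homology region (CHR), which recruits the DREAM and MuvB complexes, the CCAAT box of NF-Y, and E2F sites. Each window is the 250 bases before the gene's start on the gene's own strand, from RefSeq on build GRCm38.p6. Capitals mark matches on either strand to 3 kinds of letters. For the CHR these were TTTGAA and also TTTAAA, which is its own reverse complement. For NF-Y they were CCAAT, and for E2F they were TTCCCGC together with the variants TTGGCGC and then TTCGCGC and last TTGCCGC, which can overlap between strands. The windows lie at chr13:51644982-51645231 on the plus strand for Cks2, at chr4:118437344-118437593 on the minus strand for Cdc20 and at chr11:117848987-117849236 on the plus strand for Birc5.
Cks2: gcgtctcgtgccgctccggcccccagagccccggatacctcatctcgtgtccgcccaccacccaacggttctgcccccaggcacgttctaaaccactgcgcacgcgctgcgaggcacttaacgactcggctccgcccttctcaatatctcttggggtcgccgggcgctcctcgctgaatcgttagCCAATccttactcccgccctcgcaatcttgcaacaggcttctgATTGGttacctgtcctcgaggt
Cdc20: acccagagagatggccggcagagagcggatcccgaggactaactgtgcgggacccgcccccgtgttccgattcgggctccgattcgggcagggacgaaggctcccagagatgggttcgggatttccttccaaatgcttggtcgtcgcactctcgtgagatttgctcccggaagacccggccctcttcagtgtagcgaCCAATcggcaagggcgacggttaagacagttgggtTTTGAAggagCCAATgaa
Birc5: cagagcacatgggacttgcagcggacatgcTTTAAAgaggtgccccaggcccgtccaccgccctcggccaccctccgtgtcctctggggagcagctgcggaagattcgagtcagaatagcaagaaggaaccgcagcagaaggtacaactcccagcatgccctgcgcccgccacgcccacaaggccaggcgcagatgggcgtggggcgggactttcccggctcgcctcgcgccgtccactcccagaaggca

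The Cks2 window held CCAAT at 65 to 61 bases and its reverse complement ATTGG at 22 to 18 bases before the start. That of Cdc20 held the CHR letters TTTGAA at 18 to 13 bases, with CCAAT at 53 to 49 and at 8 to 4 bases before the start. Birc5 held 1 match, TTTAAA at 220 to 215 bases before the start. None of the 3 windows held one of the E2F letter strings. The RefSeq table had 31 promoters of 30 of the 37 genes; Ccna2, Ccnd1, Ccnd2, Mcm4, Aurkb, Kif20a and Tpx2 had no entry. CHR letters stood in 48.4% of the members' windows, against 23.1% of 21263 windows of protein-coding genes and 25.2% of all 32851 windows. CCAAT stood in 87.1% of them, against 35.4% of the windows of protein-coding genes and 33.8% of all, and E2F letters in 29%, against 10% and 7.89%. The members' windows were 58.9% G and C, against 55.5% for protein-coding genes and 53.2% for all. A pair of CHR and CCAAT matches was found in 13 of the 31 member windows (41.9%), against 8.41% of the windows of protein-coding genes and 8.78% of all. The 13 include that of Cdc20 and those of Ccnb2, Plk1, Mki67 and Ube2c, whose ratios did not pass the test. They also include those of Ccnb1 and Hmgb2, which had no probe, and of Cdk1, Cenpf, Kif11 and Top2a, which were not above background. These matches are letters in a window and were not measured as bound sites.

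The counts of each role group here and below are to be read beside the 3.09% of all genes called higher and 1.87% called lower. At an unadjusted p under 0.05 in limma those shares were 10.8% and 9.66%. The groups are small, so single calls, or none, say little against such shares. Among the D and E cyclins, 0 of 3 passed the test, with 1 higher and 1 lower at an unadjusted p under 0.05 in limma. Ccne1, the cyclin of replication entry, had null signals of 366, 342 and 240 over background on the Cy5-null arrays, against 184, 226 and 209 in the heterozygous RNA. On the Cy3-null arrays the null signals were 268, 179 and 191, against 233, 264 and 162 in the heterozygous RNA. Its ratio averaged 0.18 ± 0.13 (SD, n = 3 pools; limma adjusted p = 0.191) and ran from -0.01 to 0.39 over the arrays. Cy5-null arrays averaged 0.28 and Cy3-null arrays 0.07, so the value moved with the dye orientation. Ccnd2, a D cyclin, read -0.09 ± 0.042 (limma adjusted p = 0.203) at its brightest probe and 0.14 ± 0.066 at a second probe above background, and these 2 probes had opposite signs. The other D cyclin, Ccnd1, stood well above background in the null RNA on 2 arrays and in the heterozygous RNA on 4, and read -0.04 ± 0.055.

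Of the 6 Mcm helicase genes, all of them above background, 0 passed in limma, with 0 higher and 1 lower at an unadjusted p under 0.05, and their ratios ran from -0.13 to 0.16 with a median of 0.02. Mcm6 had null signals of 578, 541 and 462 over background on the Cy5-null arrays, against 399, 454 and 434 in the heterozygous RNA. On the Cy3-null arrays they were 532, 339 and 430, against 452, 474 and 229 in the heterozygous RNA. After normalization Mcm6 read -0.03, -0.01 and 0.07 on the Cy5-null arrays and 0.30, 0.06 and 0.57 on the Cy3-null arrays, for a mean of 0.16 ± 0.15 (SD, n = 3 pools; limma adjusted p = 0.294). The excess over 0 thus came from 2 arrays of 1 orientation, those of pools 1 and 3.

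Mcm7, at the other end, read 0.03 and 0.12 on the arrays of pool 1, against -0.31 and -0.40 on those of pool 3. Its null signals were 169, 195 and 118 over background on the Cy5-null arrays and 135, 104 and 102 on the Cy3-null arrays, and its heterozygous signals were 118, 168 and 155, and 128, 188 and 128, on the same arrays. Its mean of -0.13 ± 0.22 (SD, n = 3 pools; limma adjusted p = 0.547) was smaller than the spread between pools. Mcm4 had null signals of 100, 104 and 76.1 over background on the Cy5-null arrays, against 88.1, 87.1 and 80.7 in the heterozygous RNA, and of 73.8, 64.8 and 54.3 on the Cy3-null arrays, against 92.9, 108 and 58.0 in the heterozygous RNA. It was above 0 on 1 array of 6, at -0.16, 0.03 and -0.08 on the Cy5-null arrays and -0.15, -0.10 and -0.17 on the Cy3-null arrays. Its mean was -0.11 ± 0.063 (SD, n = 3 pools; limma adjusted p = 0.199). Mcm2, Mcm3 and Mcm5 lay between -0.01 and 0.07. The smallest spread of the members above background was that of Mcm5, at -0.01 ± 0.0084.

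For the DNA synthesis genes, 0 of 4 passed in limma, with 1 higher and 0 lower at an unadjusted p under 0.05. Tyms, the thymidylate synthase that makes the thymidine nucleotide, had the largest ratio of the uncalled members. Its null signals were 112, 112 and 82.5 over background on the Cy5-null arrays, against 62.0, 73.0 and 74.9 in the heterozygous RNA. On the Cy3-null arrays they were 100, 72.4 and 71.3, against 62.6, 73.1 and 45.2 in the heterozygous RNA. The raw null signal was the higher one on 5 of the 6 arrays. After normalization the ratio was above 0 on all 6 arrays, from 0.05 to 0.46, and averaged 0.26 ± 0.12 (SD, n = 3 pools; limma adjusted p = 0.0831). Its 3 further probes, all above background, read 0.16 ± 0.097, 0.10 ± 0.058 and -0.05 ± 0.041, so they differed in sign. Pcna, the replication clamp, and Rrm1 and Rrm2, the subunits of ribonucleotide reductase, lay between -0.01 and 0.03.

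Of the 7 measured mitotic cyclins and kinases, Cks2 was the 1 call. The Aurora kinases read below 0 on average, with Aurka at -0.09 ± 0.23 and Aurkb at -0.10 ± 0.12 (SD, n = 3 pools; limma adjusted p = 0.697 and 0.443). Aurkb had null signals of 74.0, 75.3 and 105 over background on the Cy5-null arrays, against 55.6, 87.6 and 105 in the heterozygous RNA, and of 57.0, 49.3 and 49.9 on the Cy3-null arrays, against 56.2, 88.3 and 56.3 in the heterozygous RNA. Both kinases were above 0 on the 2 arrays of pool 1 and below 0 on the other 4. Aurka ran from 0.20 to -0.32 over the arrays, a wider range than its mean difference. Ccna2 and Ccnb2, the A and B cyclins, read 0.0050 ± 0.053 and 0.02 ± 0.12, and Plk1 read -0.01 ± 0.053.

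In the checkpoint and anaphase group, Cdc20 was the 1 call of 4. Ube2c, the ubiquitin-conjugating enzyme that works with the complex Cdc20 activates, read 0.05 ± 0.033 (SD, n = 3 pools; limma adjusted p = 0.384). Bub1, a checkpoint kinase, averaged 0.07 on the Cy5-null arrays and -0.24 on the Cy3-null arrays. Because the dye swap cancels in each pool, its mean of -0.08 ± 0.030 (limma adjusted p = 0.170) had a small SD over pools while the arrays ran from -0.36 to 0.13. A second Bub1 probe above background read -0.00043 ± 0.072.

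Birc5 was the 1 call of 9 among the kinetochore, spindle and cytokinesis genes, where only 3 were above background. Cenpe, a kinetochore motor, read 0.03 ± 0.067 and Kif20a, a motor of cytokinesis, -0.03 ± 0.11 (SD, n = 3 pools; limma adjusted p = 0.743 and 0.838). Of the chromatin genes, Mki67, which encodes the proliferation antigen Ki-67, had null signals of 31.2, 40.3 and 26.9 over background on the Cy5-null arrays, against 32.1, 32.5 and 16.8 in the heterozygous RNA, and of 28.5, 21.3 and 20.4 on the Cy3-null arrays, against 24.3, 37.6 and 10.0 in the heterozygous RNA. Its ratio was above 0 on 4 arrays, at -0.10, 0.03 and 0.15 on the Cy5-null arrays and 0.09, -0.07 and 0.17 on the Cy3-null arrays, with a mean of 0.05 ± 0.098 (SD, n = 3 pools; limma adjusted p = 0.686). Ratios of such low signals are drawn toward 0 by the offset of the background correction, so they do not show equal levels.

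**Figure D3:**
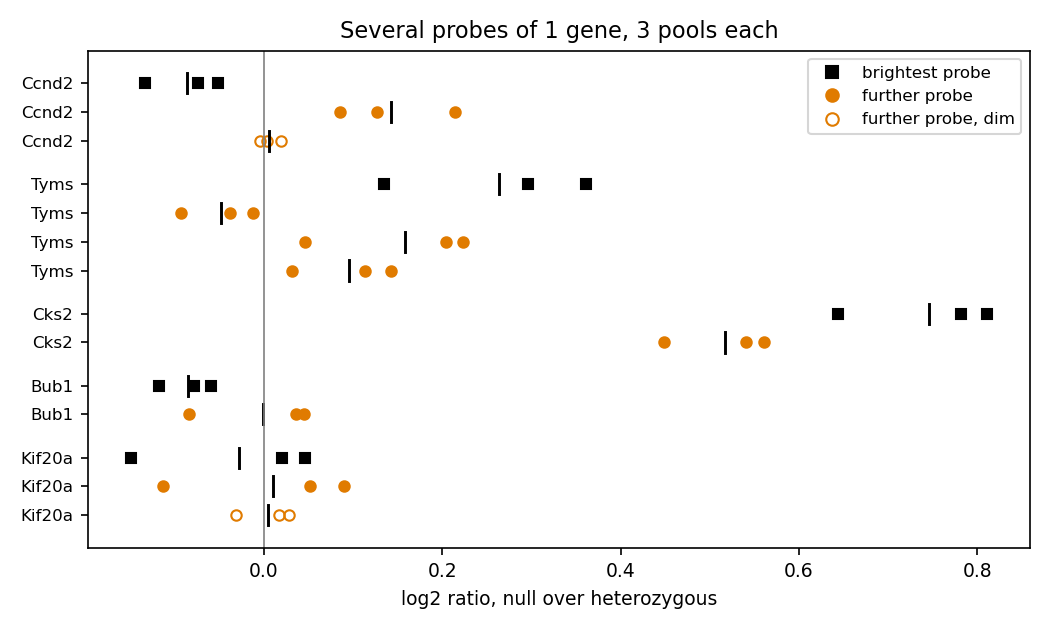
Log2 ratio of null over heterozygous (x axis) in the 3 pools for each probe of the 5 members that had a further probe above background. Squares are the brightest probe, filled circles further probes above background, open circles dim further probes, and ticks are means. Both Cks2 probes lie far above 0, at means of 0.75 and 0.52, while the probes of Ccnd2 and of Tyms fall on both sides of 0.

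Of the 27 further probes of 19 members, 7 probes of 5 members were above background and 15 were dim in both RNAs on each array. The 3 heterozygous pools also differed among themselves. Among the 26 members above background, the ratio was highest against pool 1 for 17, against pool 2 for 2 and against pool 3 for 7. For all 12291 genes above background these counts were 5151, 3528 and 3612. Pool medians of the 35 members were 0.04, -0.01 and 0.01.

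Cell cycle genes outside the member list gave calls in both directions. Of 87 measured further cycle genes, 5 rose and 3 fell in the null pool, and 79 did not pass. The rises are 5.75% of the list, against 3.09% of all genes called higher, and the falls stand beside 1.87% of all genes called lower. The further lists, too, were chosen with earlier results of these data known, so their shares are no independent findings. At an unadjusted p under 0.05 in limma, 13 were higher and 8 lower, where the shares of all genes were 10.8% and 9.66%. Their median ratio was -0.00093, beside the -0.0027 of all genes. Anapc11, the RING subunit of the anaphase promoting complex, rose by 0.64 ± 0.088 and Cks1b, the paralog of Cks2, by 0.54 ± 0.050. Cdca3, a trigger of mitotic entry, rose by 0.43 ± 0.021, Pttg1, the securin that Cdc20 targets for destruction, by 0.41 ± 0.10, and Cenpa, the centromeric histone, by 0.38 ± 0.018 (SD, n = 3 pools; limma adjusted p from 0.0260 to 0.0379 for the 5). All 5 were above 0 on every array, which their selection by a test against 0 already favours. Cks2 and Cks1b encode closely related proteins, and whether their probes could share signal was not tested.

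The 3 falls were in Smc4, a condensin subunit, at -0.33 ± 0.097, in Anapc1, a scaffold subunit of the anaphase promoting complex, at -0.30 ± 0.035, and in Cdc25a, a phosphatase that activates cyclin-dependent kinases, at -0.22 ± 0.049 (SD, n = 3 pools; limma adjusted p = 0.0456, 0.0274 and 0.0433). All were below 0 on every array, which the selection favours here as well. The 8 calls of this list were also lost in the settings in which no gene of the array passed. Cdc25a was further lost on the Cy5-null arrays alone and on the Cy3-null arrays alone (limma adjusted p = 0.107 and 0.0562). Cdca3 and Smc4 were lost on the Cy3-null arrays alone (adjusted p = 0.0651 and 0.0566 in limma). The 2 subunits of the anaphase promoting complex thus moved in opposite directions at their brightest probes. Further probes were less clear: a second Anapc11 probe, bright on all 6 arrays, read 0.06 ± 0.012, a dimmer one -0.04 ± 0.012, and a second Cdc25a probe above background read 0.03 ± 0.023. The 3 further Anapc1 probes above background read from -0.23 to -0.03. With all probes of a gene averaged, Smc4, Anapc1 and Cdc25a no longer passed (limma adjusted p = 0.0504, 0.0899 and 0.0852). The further Smc4 probe was dim in both RNAs on each array, and a dim probe draws such a mean toward 0. The mean therefore cannot decide on Smc4, and that of Anapc1 also includes probes that were not above background.

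Among 21 transcription regulators of the cycle, 1 rose and 0 fell. This was E2f7, a repressor of the E2F family, at 0.78 ± 0.13 (SD, n = 3 pools; limma adjusted p = 0.0261), bright on all 6 arrays; its 2 further probes were dim throughout. Foxm1 and Mybl2, activators of mitotic genes, read -0.02 and 0.02, and E2f1 read -0.07. Of 13 kinase inhibitors and related arrest genes, Cdkn3 was the 1 rise, at 0.41 ± 0.086 (limma adjusted p = 0.0318), and 0 fell. Cdkn3 encodes a phosphatase that acts on cyclin-dependent kinases. Its probe stood well above background in the null RNA on 6 arrays and in the heterozygous RNA on 2, so the size of its ratio is not settled, and it ran from 0.14 to 1.48 over the alternative settings. A second Cdkn3 probe above background read 0.04 ± 0.038. Cdkn1c, an inhibitor of newborn neurons, read -0.19 ± 0.27, Cdkn1b read -0.02 ± 0.10, and Cdkn1a was not well above background on any array. The 1 rise is 4.76% of the transcription regulators and 7.69% of the arrest genes, against 3.09% of all genes called higher. At an unadjusted p under 0.05 in limma, the transcription regulators had 1 higher and 0 lower and the arrest genes 2 and 2. The shares of all genes at that level were 10.8% and 9.66%.

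**Figure D4:**
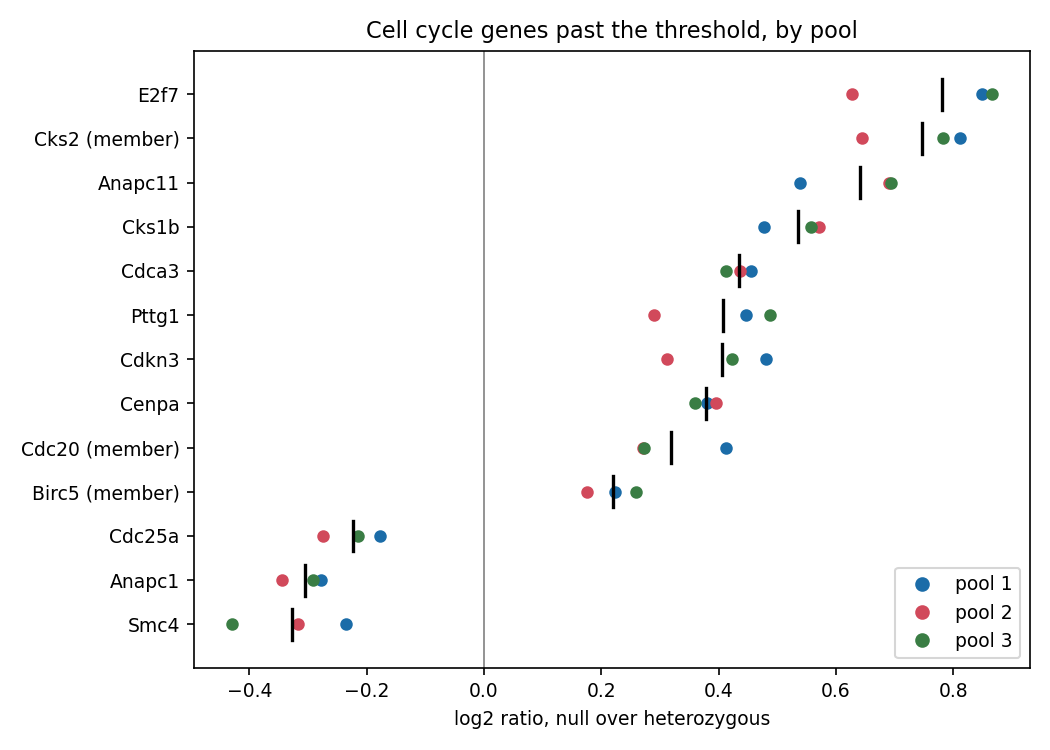
Log2 ratio of null over heterozygous (x axis) in the 3 pools for the 3 members and the 10 further cell cycle genes that passed the threshold; ticks are means. The genes run from Smc4 at -0.33 to E2f7 at 0.78. The pools of each gene lie on 1 side of 0, which their selection by a test of the pools against 0 already favours.

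Gene length moved with the ratio across the arrays. Over the 12264 genes above background that had a span, Spearman's rho between log2 ratio and genomic span was -0.26, a description across genes that share libraries. Of the 2165 of them with a span under 5000 bases, 9.28% were called higher, and of the 1539 genes from 5000 to 10000 bases, 6.82%, against 4.6% of all genes above background. The 3 called members lie in these classes, with spans of 4443 bases for Cdc20, 5431 for Cks2 and 6507 for Birc5, in the RefSeq table. Among the 26 members above background rho was -0.02, and the 9 other members with a span under 10000 bases were not called. With the span trend subtracted from each pool, Cks2 read 0.72, Cdc20 0.29 and Birc5 0.20, and the adjusted p of Birc5 in limma was then 0.0513. The 5 further cycle genes that rose also have spans under 10000 bases, at 2820 for Cks1b, 4172 for Cdca3, 7220 for Pttg1, 7961 for Cenpa and 9778 for Anapc11. The 3 that fell are longer, at 18378 for Cdc25a, 29886 for Smc4 and 77324 for Anapc1. Ccng1, Ccng2, Cdt1, Gins2, Orc6 and Rfc5 of the same list, also above background with spans under 10000 bases, were not called. The regulators E2f7 and Cdkn3, which rose, span 41946 and 11070 bases. The part of gene length in these calls was not tested beyond the subtraction of the trend.

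**Figure D5:**
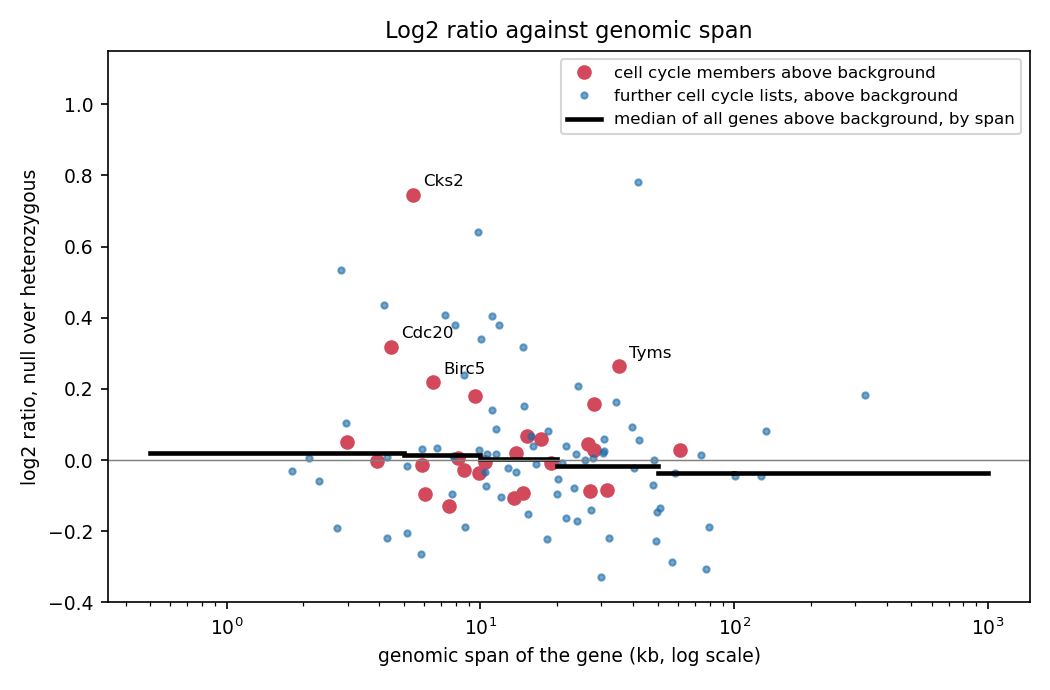
Log2 ratio of null over heterozygous (y axis) against genomic span (x axis, log scale) for the 26 cell cycle members above background (large points) and the further cell cycle genes above background (small points). Black bars are medians of all genes above background in classes of span; they run from 0.019 for the shortest genes to -0.038 for the longest.

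Markers of other cells that the sort could hold were read beside these results. The counts of each marker list here and below stand beside 3.09% of all genes called higher and 1.87% called lower. At an unadjusted p under 0.05 in limma, the shares of all genes were 10.8% higher and 9.66% lower. The lists are short, so single calls say little against these shares. Of 18 measured radial glia and progenitor markers, 15 were above background, 1 rose and 0 fell, with 5 higher and 1 lower at an unadjusted p under 0.05 in limma, and their median ratio was 0.05 ± 0.042 (SD of pool medians). Their summed intensity over background ran from 5438 to 9876 in the null RNA and from 4043 to 7756 in the heterozygous RNA. Fabp7, at means of 2921 and 2042, and Vim, at 1462 and 1211, gave the largest parts of these sums, which were taken before normalization. The rise was Id1, an inhibitor of differentiation, at 0.50 ± 0.054, with a second probe at 0.43 ± 0.058. The progenitor genes Hes5, Fabp7 and Pax6 read 0.40 ± 0.20, 0.38 ± 0.21 and 0.45 ± 0.40 without passing (limma adjusted p = 0.0903, 0.113 and 0.246). Sox2 and Msx1 read 0.11 ± 0.057 and 0.13 ± 0.074, also without passing. On the other side, Sox9 read -0.14 ± 0.15 and Slc1a3 -0.23 ± 0.33. Dll1, the 1 marker of this list lower at an unadjusted p under 0.05, read -0.26 ± 0.18 (limma adjusted p = 0.182) and was below 0 on every array. Hes1 stood well above background in the null RNA on 2 arrays and in the heterozygous RNA on 1.

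Of 11 measured erythroid markers, 10 were above background, 1 rose and 0 fell, with 4 higher and 0 lower at an unadjusted p under 0.05 in limma and a median ratio of 0.03. They had summed intensities of 4921 to 8745 in the null RNA and 2635 to 6613 in the heterozygous RNA. Hbb-b1 alone averaged 5397 in the null and 3194 in the heterozygous RNA, so these sums, taken before normalization, mainly follow 1 gene. Hbb-y, an embryonic globin, rose by 0.37 ± 0.060, and the adult globin Hbb-b1 read 0.66 ± 0.31 (limma adjusted p = 0.0287 and 0.0785). Hba-x was the 1 erythroid marker not above background. The 12 endothelial markers, 8 above background, had 0 rises and 2 falls, Cd34 at -0.41 ± 0.13 and Sox17 at -0.37 ± 0.12, with 0 higher and 3 lower at an unadjusted p under 0.05 in limma, a median ratio of -0.04 and summed intensities of 759 to 1209 in the null RNA and 692 to 1716 in the heterozygous RNA. The 2 further Sox17 probes above background read 0.05 ± 0.040 and 0.02 ± 0.019, opposite in sign, and Sox17 did not pass with its probes averaged (-0.10, limma adjusted p = 0.0750). Microglial markers had 0 calls among 11 in limma (0 also at an unadjusted p under 0.05), of which 9 were above background, with sums of 158 to 299 in the null RNA and 130 to 267 in the heterozygous RNA. The 10 mesenchyme and pericyte markers, 8 above background, had 1 rise, Postn at 0.24 ± 0.031, 0 falls, 2 higher and 1 lower at an unadjusted p under 0.05 in limma, and sums of 252 to 442 in the null RNA and 217 to 386 in the heterozygous RNA. A second Postn probe above background read -0.09 ± 0.085, opposite in sign, and Postn did not pass with both averaged (0.07, limma adjusted p = 0.146). The 5 oligodendrocyte lineage markers, all above background, also had 0 calls, and 0 at an unadjusted p under 0.05, with sums of 184 to 373 in the null RNA and 139 to 298 in the heterozygous RNA. Of 12 measured general neuronal markers, 11 above background, Elavl3 fell by 0.50 ± 0.14 and 0 rose, with 0 higher and 4 lower at an unadjusted p under 0.05 in limma. Their median ratio was -0.11, with 1 of the 12 above 0, where 8736 of all 18295 genes lay above 0. They had sums of 2569 to 3876 in the null RNA and 2284 to 4065 in the heterozygous RNA. The part of these cell types in the ratios of the cell cycle genes was not tested.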

How the data were processed

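Each scanner table gives, per the file headers, mean spot intensity with the median and SD of the surrounding background for both channels, not normalized. The authors also deposited normalized intensities of each dye and a series table of log2 values, which equalled log2 of normalized Cy5 over Cy3 to within 1e-06 at all 45220 spots of each array and were not turned for swapped arrays; they were normalized by a method not given in the sources used here. Channel 1 was matched to Cy5 through those values. Per the labels' protocols, RNA went through 2 rounds of amplification.

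Of 45220 spots, 4046 were control spots. The platform annotation gave 34186 of the 41174 probes a single symbol and 6988 none. RefSeq's table of GRCm38.p6 held the symbol of 30365 probes, an older symbol was replaced for 3726, and 95 stayed as given. Intensities were corrected with limma's normexp (offset 50) and normalized by loess within each array with control spots at weight 0. Ratios were turned to null over heterozygous, so a fold change is on the scale of intensity plus that offset and understates dim genes. The 2 arrays of a pool were averaged, and the 3 pools were tested against 0 with lmFit and eBayes (limma 3.58.1, R 4.3.3), adjusted by Benjamini-Hochberg over 18295 genes, threshold 0.05. The fit was also run on simulated pool ratios with errors drawn independently for each pool. The real ratios share the null pool, so that run cannot show an error of the null pool. The number of arrays limits the precision.

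All measured members are accounted for. Those past the threshold, the 6 largest uncalled ratios among members above background and 1 member of each role group are given by array; of the further lists, the genes past the threshold are named, and others in the text were chosen after their values were seen. The members and lists were chosen with earlier results of these data known.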

Additional observations from a re-analysis of the deposited data

Results flagged for a closer look

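Dixon's ratio was taken over the 6 arrays for 36 measures, the 35 measured members and their median, and set 1 array apart from the rest for 4 of them, where chance gives about 5%. For 3 of the 4 it was the Cy3-null array of pool 1. There Plk1 read 0.12, while its other arrays lay between -0.06 and -0.01. Cenpe read -0.13 there, outside its range of 0.03 to 0.11 elsewhere. Kif20a read -0.28, below the -0.05 to 0.09 of its remaining arrays. Kif11, a dim gene throughout, read 0.10 on the Cy5-null array of pool 3, and its remaining arrays lay between -0.11 and -0.04.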

How the results depend on the processing

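Each result was recomputed under 14 alternatives, 1 of which, the subtraction of the span trend, was chosen after the data were seen. The ratios of Cks2, Cdc20 and Birc5 stayed above 0 in all 14. The count of 3 members called higher, and that of 908 genes called in all, were both 0 when the background was simply subtracted, when arrays were centred on their median without loess and under the trended robust variance. Leaving out each pool in turn, which leaves 2 pools, gave 0 to 0 for both. In these settings limma gave 2604 to 3490 genes at an unadjusted p under 0.05, and 4 or 5 members higher at that level. The cause was not tested. With the 6 arrays in 1 model, a dye term and pool as a random block, 2221 genes passed, and Tyms joined the 3 members (adjusted p = 0.0118). In the remaining 7 settings 674 to 1070 genes and 2 or 3 members passed. The count of members called lower was 0 throughout, with 0 to 4 at an unadjusted p under 0.05 in limma. The median ratio of the members stayed between -0.00084 and 0.032. Heterozygous pools could not be paired with null pools of their own, because the null RNA carries no pool number and the samples form 1 group. Each ratio does set the 2 RNAs of 1 array side by side. The mean over probes brought E2f7 to 0.25, Anapc11 to 0.22, Cdkn3 to 0.14, Tyms to 0.12, Cenpa to 0.20, Cdca3 to 0.24 and Elavl3 to -0.24, and ended the calls of Anapc1, Cdc25a, Smc4, Sox17 and Postn. The further probes of E2f7, Cenpa, Cdca3, Elavl3 and Smc4 were all dim in both RNAs on each array. Dim probes draw a mean toward 0, so the smaller values of these genes in this setting decide nothing. The calls of Birc5, Cdca3, Cdc25a, Smc4, Elavl3, Hbb-y, Cd34, Sox17 and Postn were lost on the Cy3-null arrays alone, and on the Cy5-null arrays alone that of Cdc25a. With plain subtraction Cdkn3 read 1.48, E2f7 1.17, Postn 0.82, Tyms 0.45 and Slc6a3 -1.53. Members at an intensity near background, such as Mki67 and Ccnd1, are limited by signal.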
